A study of Mus musculus with 4 samples.

Results

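The 10 apolipoprotein genes Apoa1, Apoa2, Apoa4, Apoa5, Apoc1, Apoc2, Apoc3, Apoc4, Apoe and Apob were located in the topologically associating domains (TADs) of mouse hepatocytes cultured in 2D and in 3D. They were taken by name, as a family, from 21755 protein-coding genes on chromosomes 1 to 19 and X. Their starts fall into 4 loci: the Apoa1 cluster (Apoa1, Apoc3, Apoa4 and Apoa5) on chromosome 9, the Apoe cluster (Apoe, Apoc1, Apoc4 and Apoc2) on chromosome 7, and the single genes Apoa2 on chromosome 1 and Apob on chromosome 12. Each gene was placed by the start of its annotated gene model in the mm10 build of the mouse genome. Genes of 1 cluster share an interval and its borders, so they do not count as independent observations.

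Apolipoproteins are the proteins of lipoprotein particles, which carry triglycerides and cholesterol through the blood, and the liver is a main site of their synthesis. Apolipoprotein B is the structural protein of very low density and low density particles, apolipoproteins A-I and A-II are the major proteins of high density particles, and the exchangeable C apolipoproteins and apolipoprotein E act on lipases and on receptor uptake. A TAD is a stretch of chromosome whose sequences contact each other more often than they contact the sequences beyond its borders. In mammals many borders are bound by CTCF, a zinc finger protein that halts the extrusion of chromatin loops by cohesin.

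The cells were AML12, an immortalized mouse hepatocyte line, grown either on dishes (2D) or embedded in Matrigel, an extracellular matrix gel (3D). Hydroxyurea at 1 mM was applied for 24 h in 2D and 36 h in 3D, to stop the cells at G1/S, so culture and exposure time cannot be told apart. In situ Hi-C was used to measure contacts: crosslinked chromatin is cut in the nucleus with the enzyme MboI, neighbouring ends are ligated and the junctions are sequenced. There were 2 samples of each culture, 4 in all, and the authors merged the 2 samples of a culture before calling TADs.

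The values are therefore the ends of 4467 TADs in 2D and 4355 TADs in 3D, in 1 list per culture, on a grid of 40 kb bins. With 1 list per culture there was no replicate error, no test was possible and no p-value was computed. The lists give no number of reads for a TAD, so the depth behind a single border is not known from them. Both ends of every TAD were taken as borders, and a stretch between TADs is called outside TADs. The sources used here do not say whether such stretches are domains left out of the lists or bins without a call, so "outside TADs" means only that the list has no TAD there. A shift of 40 kb is 1 bin, the smallest step the lists can show. The cell line was not checked against hepatocyte markers, since no expression values were used here.

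The 10 starts were placed much alike in both cultures. In 2D, 5 of 10 starts lay inside a TAD, against 76.7% of all protein-coding gene starts, and in 3D 6 of 10 did, against 83.5%. Apob was the gene that changed state, from outside TADs in 2D to inside a TAD in 3D, a placement that 10.8% of all genes had. Placed by the gene midpoint the counts were again 5 and 6 of 10. Placed by the gene end, however, 6 of 10 members lay in a TAD in both lists. With only TADs of at least 200 kb, 5 of 10 did in both. The share of all genes was not computed for these settings, so these counts cannot be set against 76.7% and 83.5%. The opposite placement, inside a TAD in 2D only, was found for 0 of 10 members and 3.95% of all genes. Inside a TAD in both lists were 5 of 10, against 72.7% of all genes. The 4 genes of the Apoe cluster lay outside TADs in both lists, where 12.6% of all gene starts lay, and this count of 4 of 10 rests on a single interval. A TAD with both ends within 40 kb of the ends of a TAD of the other list is called shared. Shared TADs held 5 of 10 member starts, the Apoa1 cluster and Apoa2, against 50.2% of all gene starts (95% Wilson interval 49.6 to 50.9%, counting error only), so the members stood at the background level. Only Apoa2 had a TAD with identical ends in both lists, 1 of 10 against 35.1% of all genes.

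**Figure D1:**
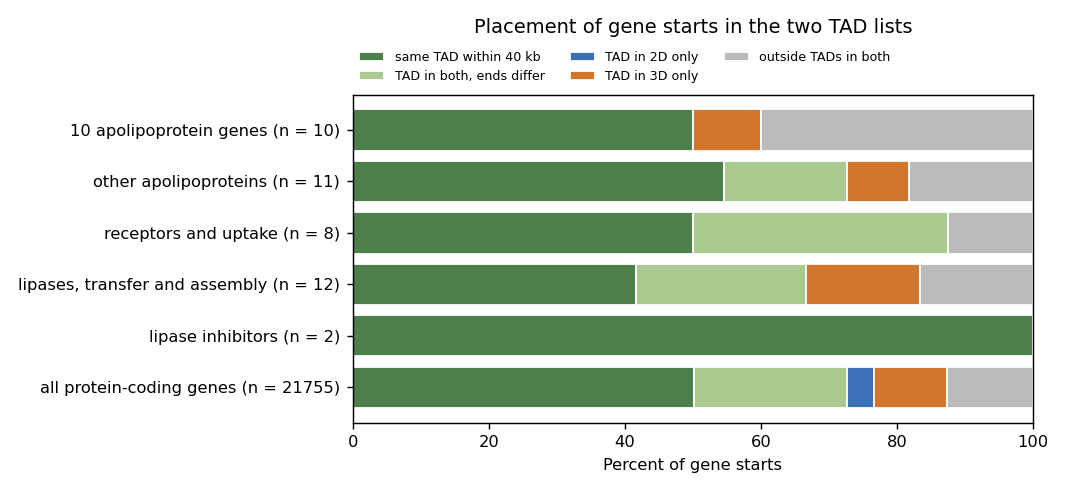
Percent of gene starts (x axis) in each placement class, for the 10 apolipoprotein genes, 4 lists of other genes and all 21755 protein-coding genes (y axis). Dark green is a TAD shared within 40 kb, light green a TAD in both lists with other ends, blue and orange a TAD in 1 list only, and grey outside TADs in both; the members have 50.0% in shared TADs and 40.0% outside TADs, all of the latter from the Apoe cluster.

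The sizes of the members' TADs ran from 240 to 320 kb in 2D and from 120 to 360 kb in 3D. For member starts inside a TAD, the median TAD size was 320 kb over 5 genes in 2D and 360 kb over 6 genes in 3D, and over all genes it was 320 kb in both lists (quartiles 160 and 1000 kb in 2D, 200 and 880 kb in 3D). The Apoa1 cluster enters these medians 4 times, and with each distinct TAD counted once they were 280 kb (2D) and 240 kb (3D), the opposite order. Member starts lay at a median distance to the nearest border of 42.9 kb (2D) and 55.9 kb (3D), against 53.6 kb and 58.3 kb over all genes. The quartiles over all genes were 22.5 and 132 kb in 2D and 23.8 and 141 kb in 3D. With borders limited to positions where 2 TADs meet, the members' medians were 206 kb (2D) and 93.2 kb (3D), again in the opposite order. Starts within 40 kb of a border numbered 4 of 10 in 2D (Apoa4, Apoa5, Apoc2 and Apob; 41.1% of all genes) and 2 of 10 in 3D (Apoc2 and Apob; 38.7%). The nearest border had the same position in both lists for 6 of 10 members, against 62.7% of all genes. For the other 4, the Apoa1 cluster, it was 40 kb farther away in 3D. These 4 genes share that border, so this is a single shift, and the share of all genes with such a shift was not computed.

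**Figure D2:**
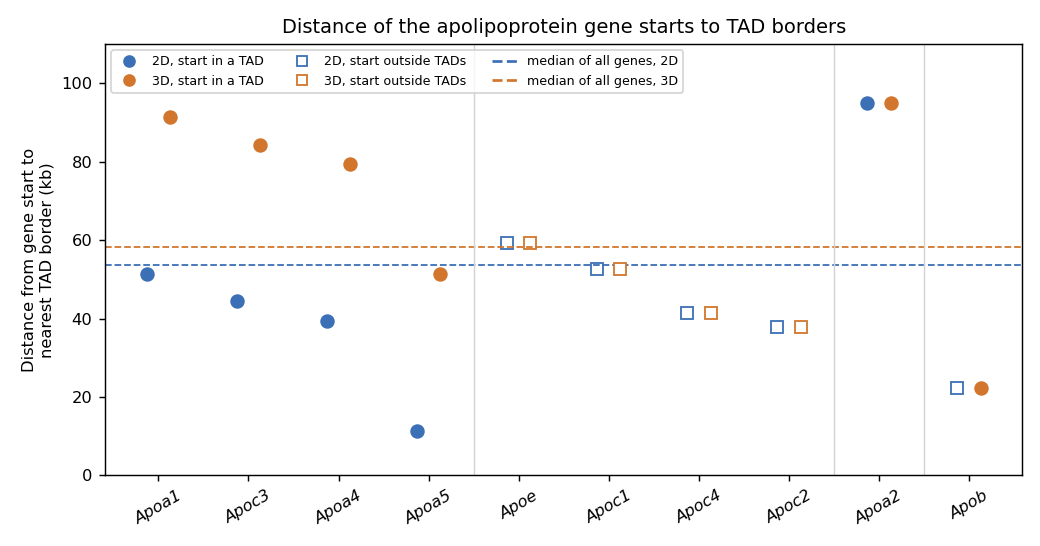
Distance in kb from the start of each apolipoprotein gene to the nearest TAD border (y axis), by gene (x axis), in 2D (blue) and 3D (orange). Filled circles are starts inside a TAD, open squares are starts outside TADs, and dashed lines are the medians of all genes (53.6 and 58.3 kb). The 4 genes of the Apoa1 cluster are 40 kb farther from the border in 3D, and the other 6 have the same distance in both.

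The Apoa1 cluster codes for apolipoprotein A-I, which activates the cholesterol-esterifying enzyme LCAT, for apolipoprotein C-III, which inhibits lipoprotein lipase, for the intestinal and hepatic apolipoprotein A-IV, and for apolipoprotein A-V, which promotes lipolysis of triglycerides. On chromosome 9 the gene models lie at chr9:46228580-46230466 for Apoa1 (plus strand), chr9:46232933-46235636 for Apoc3 (minus strand), chr9:46240696-46243459 for Apoa4 (plus strand) and chr9:46268633-46271919 for Apoa5 (plus strand). Neighbouring starts are 7.06 kb, 5.06 kb and 27.9 kb apart, and the whole cluster spans 40.1 kb from the first to the last start. Apoa1 and Apoc3 start in 1 bin of the grid, and Apoa4 and Apoa5 in the next.

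All 4 starts lay in 1 TAD in each culture. In 2D this TAD was chr9:45960001-46280000, 320 kb long, with 7 gene starts: Pafah1b2, a subunit of a platelet-activating factor acetylhydrolase, the kinase gene Sik3, the 4 apolipoprotein genes and Zpr1, a zinc finger gene. In 3D it was chr9:45960001-46320000, 360 kb long, with 9 gene starts. The left border stood at the same position, and the right border, which lies beyond Apoa5, was 1 bin farther in 3D. Of all gene starts in TADs, 49.6% lay in a smaller TAD in 2D and 51.2% in 3D, so the domain was near the middle of the size range in both lists.

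The 1-bin step brought 2 further gene starts into the domain of the cluster. Bud13, a gene for a splicing-associated protein, starts 3.01 kb beyond the 2D border, where it belonged to the next TAD of 2360 kb with 10 gene starts, and in 3D it lay in the TAD of the cluster, 37.0 kb from the border. The second, 4931429L15Rik, starts 0.014 kb before the 3D border, closer than the grid can resolve. Beyond the 3D border the next TAD was 2120 kb long and held 4 gene starts, among them Cadm1, a cell adhesion gene. On the left side the stretch chr9:45800001-45960000 of 160 kb, with 6 gene starts including the protease genes Bace1 and Pcsk7, was outside TADs in 2D and a TAD of its own in 3D.

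The cluster lay toward the right end of its TAD, with Apoa5 nearest to the border. Apoa1 started 51.4 kb from the right border in 2D and 91.4 kb in 3D, and 269 kb from the left border in both. Apoc3 started 44.4 kb from the right border in 2D and 84.4 kb in 3D. Apoa4 started at 39.3 kb in 2D and 79.3 kb in 3D. The shift was the same for all 3, since the genes share the border that moved. Apoa5 started 11.4 kb from the border in 2D, where 13.4% of all gene starts lay nearer to a border, and 51.4 kb in 3D, where 45.7% did. As a position along the TAD from left to right, Apoa5 went from 96.4% in 2D to 85.7% in 3D, and Apoa1 from 83.9% to 74.6%.

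A cluster kept within 1 TAD is common among genes this close together. Consecutive protein-coding gene starts shared a TAD in 57.6% of 21735 pairs in 2D, in 64.6% in 3D and in 52.9% in both lists, with a median distance of 40.0 kb between the starts of a pair. Among pairs within 40 kb of each other, 60.7% shared a TAD in both lists. Among runs of 4 consecutive starts within 80 kb, a comparison added after the values were seen, 49.8% of 5930 runs lay in 1 TAD in both lists, as the Apoa1 cluster did. Such runs outside TADs in both lists, as at the Apoe cluster, made up 7.84%.

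**Figure D3:**
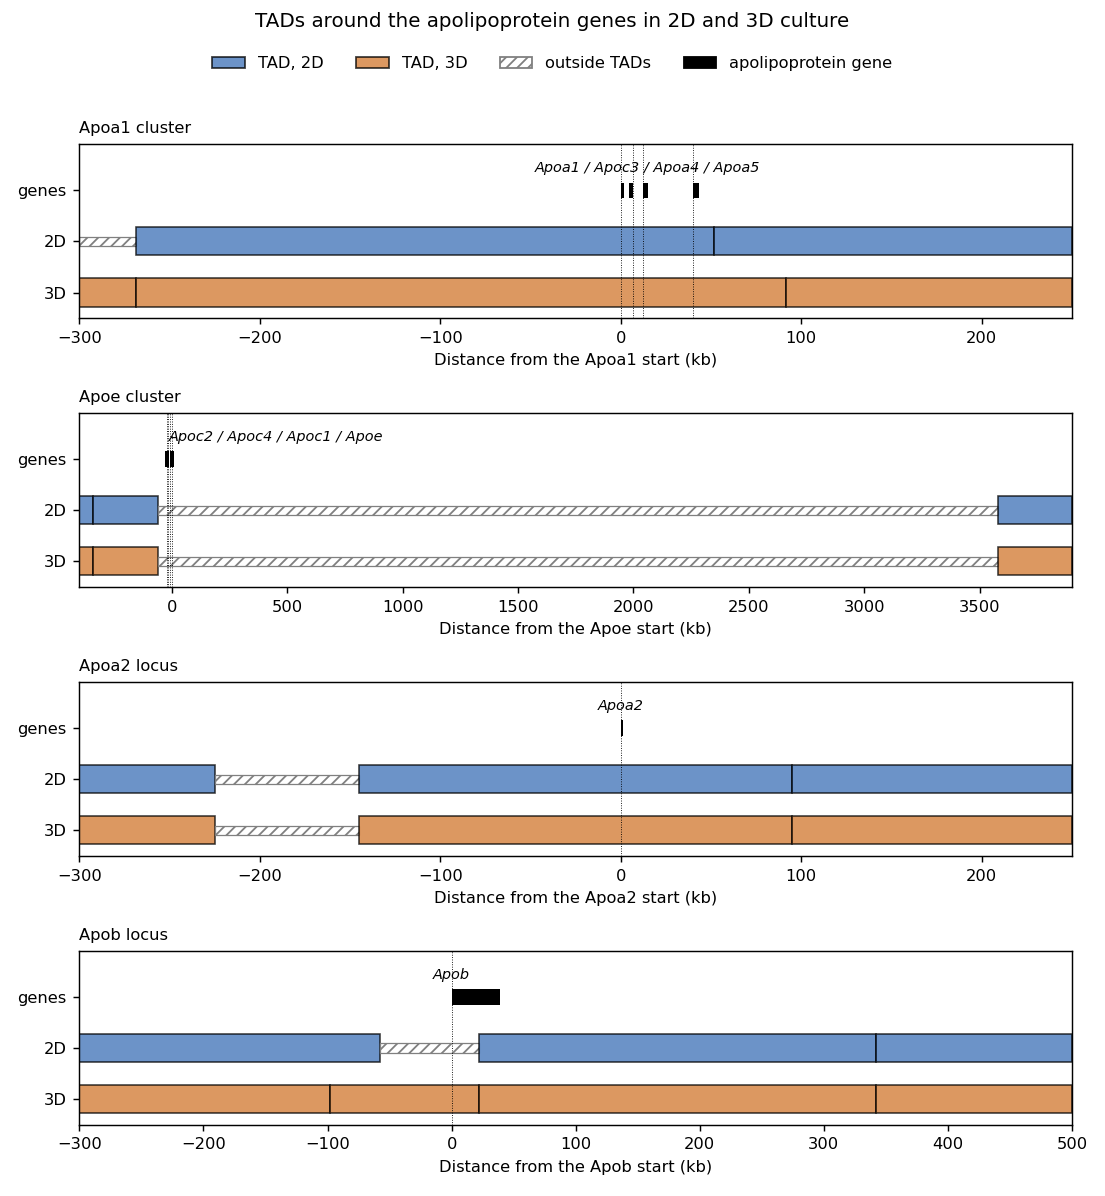
Maps of the 4 loci, with distance in kb from the start of the named gene on the x axis and rows for the apolipoprotein genes (black), the 2D TADs (blue) and the 3D TADs (orange); hatched bars are outside TADs, dotted lines mark gene starts, and boxes at a panel's edge run on beyond it. The right border of the Apoa1 cluster is 40 kb farther out in 3D, the Apoe cluster sits at the edge of a 3640 kb stretch outside TADs in both lists, the Apoa2 TAD is identical in both, and a border falls inside Apob in both.

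The borders near the cluster were searched for a core of 12 letters of the CTCF motif, which begins with CCA, goes on with 2 free letters and ends with AGGGGGC or AGGTGGC, on both strands, in the genome sequence of GRCm38, the assembly that mm10 names. At least 1 match lay within 40 kb of 54% of the 2D borders and of 53.7% of the 3D borders, against 33.4% of all grid positions and 30.7% of those that are a border in neither list. At the left border of the Apoa1 cluster, 0 matches were found. At the right border there were 3 matches around the 2D position and 5 around the 3D position, and the bin that the TAD gained in 3D held 3 of them. The 5 sites within 40 kb of the right border at either position are shown with 14 bases on each side, 5′ to 3′ on the strand of the match, with the 12 matching letters in capitals. The first is chr9:46285966-46286005 on the plus strand, in an intron of Bud13, 5.99 kb beyond the 2D border. The second is chr9:46318139-46318178 on the minus strand and the third chr9:46319094-46319133 on the plus strand, both in an intron of 4931429L15Rik, 1.84 kb and 0.887 kb before the 3D border. The fourth is chr9:46326880-46326919 on the plus strand and the fifth chr9:46330537-46330576 on the minus strand, both between protein-coding genes, 6.90 kb and 10.6 kb beyond the 3D border.
Apoa1 cluster site 1: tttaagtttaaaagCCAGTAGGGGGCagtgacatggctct
Apoa1 cluster site 2: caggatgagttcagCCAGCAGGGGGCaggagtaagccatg
Apoa1 cluster site 3: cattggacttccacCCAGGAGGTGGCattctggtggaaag
Apoa1 cluster site 4: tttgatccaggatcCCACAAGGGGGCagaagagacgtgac
Apoa1 cluster site 5: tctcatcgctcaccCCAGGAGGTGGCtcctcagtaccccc

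Sites 1 to 3 lie between the 2D and the 3D position of the border and so fall inside the TAD of the cluster in 3D but not in 2D. The strands differ among the sites, with 3 on the plus and 2 on the minus strand. These are matches of letters and no binding of CTCF was measured, so their part in the position of the border was not tested.

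The Apoe cluster codes for apolipoprotein E, a ligand of lipoprotein receptors, for apolipoprotein C-I, an inhibitor of lipoprotein uptake, for the minor apolipoprotein C-IV, and for apolipoprotein C-II, the activator of lipoprotein lipase. All 4 genes lie on the minus strand of chromosome 7, at chr7:19696109-19699188 for Apoe, chr7:19689481-19692660 for Apoc1, chr7:19678083-19681479 for Apoc4 and chr7:19671579-19677941 for Apoc2. Their starts span 21.2 kb, less than the Apoa1 cluster, with steps of 6.53 kb from Apoe to Apoc1, 11.2 kb to Apoc4 and 3.54 kb to Apoc2. None of them lay in a TAD in either list, in contrast to the Apoa1 cluster.

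The starts fell in a stretch outside TADs at chr7:19640001-23280000, 3640 kb long and with the same ends in both lists. Stretches with a TAD on each side, so without chromosome ends, had a median length of 80 kb (1569 in 2D and 1188 in 3D). Among these, the stretch with the Apoe cluster was the longest in each list. The Apoe cluster sat at its left edge: Apoe started 59.2 kb from the border at position 19640000, Apoc1 52.7 kb, Apoc4 41.5 kb and Apoc2 37.9 kb, in both cultures. The other end lay 3581 kb from the start of Apoe. The border itself lies in an intron of Clptm1, the next gene after Apoc2, so the cluster is separated from it by part of 1 gene.

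The long stretch held 102 protein-coding gene starts, of which 49 were Vmn1r genes, the vomeronasal receptors of type 1, and 37 were gene models with Gm names. The first Vmn1r gene, Vmn1r91, started 400.5 kb from the start of Apoe. The 18 gene starts before it included the neighbours Tomm40, a subunit of the mitochondrial protein import pore, the cell adhesion genes Nectin2 and Bcam, and Bcl3, a regulator of NF-kappaB. On the other side of the border, the TAD chr7:19360001-19640000 of 280 kb had identical ends in both lists and held 13 gene starts, with Relb, a subunit of NF-kappaB, starting 10.6 kb from the border. At the far end the next TAD was 1040 kb long in 2D, and in 3D the same bins were divided into TADs of 640 kb and 400 kb.

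The sequence of the stretch differed between the end with the Apoe cluster and the rest. Repeats made up 63.7% of its bases, against 41.7% in the bins outside TADs in both lists that have no unknown bases and 33.9% in all bins inside TADs in both. In the 440 kb before the first Vmn1r bin, which hold the Apoe cluster, repeats made up 42.5%, and in the 3200 kb that follow they made up 66.7%. The 2 bins with the 4 starts had 35.6% repeats, close to the bins inside TADs. MboI sites numbered 104 per 40 kb in these 2 bins, 113 in the 440 kb and 126 in the 3200 kb. They numbered 99.9 in all bins inside TADs and 106 in the bins outside TADs in both lists that have no unknown bases. Unknown bases made up 0% of the 440 kb and 1.56% of the 3200 kb. Repeat content and cutting sites thus moved along the stretch, and their part in the lack of TADs at the Apoe cluster was not tested.

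**Figure D4:**
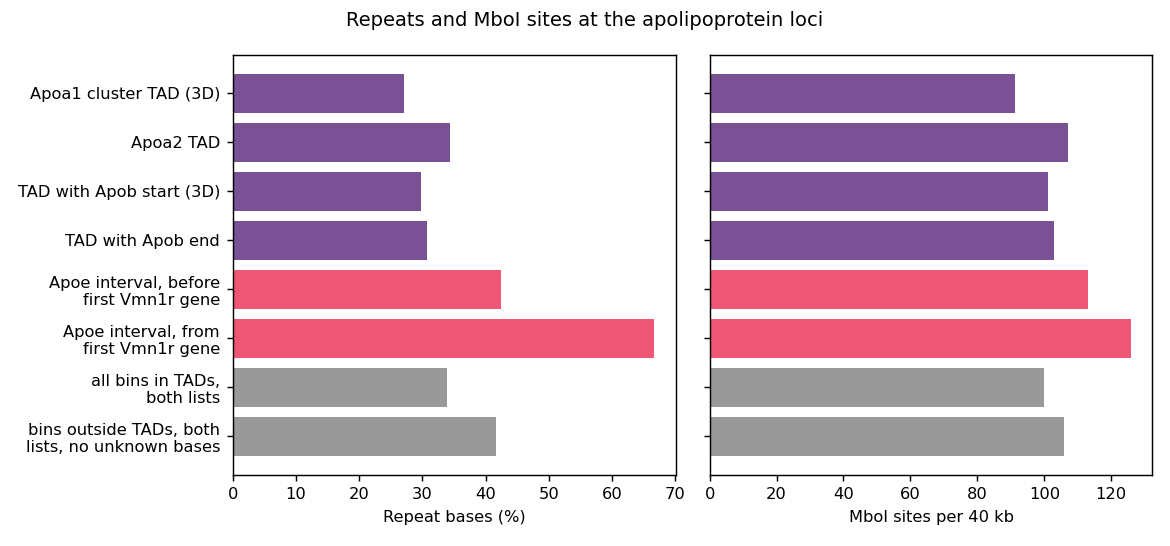
Repeat bases in percent (left, x axis) and MboI sites per 40 kb bin (right, x axis) in the TADs and stretches of the apolipoprotein loci (y axis). Purple bars are TADs with members, red bars the stretch around the Apoe cluster on both sides of the first Vmn1r gene, and grey bars all bins inside TADs in both lists and those outside TADs in both that have no unknown bases; the part from the first Vmn1r gene on has the most repeats (66.7%).

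Within 40 kb of the border beside the Apoe cluster, 2 CTCF core matches were found, both on the plus strand. The site chr7:19610135-19610174 lies in an intron of Relb, 29.8 kb before the border, and chr7:19669052-19669091 lies between Clptm1 and Apoc2, 29.1 kb after it. They are shown because the cluster lies next to this border and the second site is on its side, with the 12 matching letters in capitals.
Apoe cluster site 1: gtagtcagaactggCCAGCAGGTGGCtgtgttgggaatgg
Apoe cluster site 2: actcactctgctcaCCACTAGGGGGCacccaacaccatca

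The border at the far end of the stretch had 0 matches. Of the borders of this stretch, the one beside the Apoe cluster thus carried matches and the other did not.

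Apoa2, which codes for the second major protein of high density particles, lies at chr1:171225054-171226379 on the plus strand. It was the only member in a TAD with identical ends in both lists. This TAD was chr1:171080001-171320000, 240 kb long, in both lists, with 14 gene starts. Among the neighbours were Nr1i3, the nuclear receptor CAR of the liver, Sdhc, a subunit of a respiratory complex, and Fcer1g, the signalling chain of Fc receptors. Apoa2 started 94.9 kb from the right border and 145 kb from the left one, at 60.4% of the TAD, and so had the largest distance to a border among the members in both cultures. Of all gene starts, 67.5% lay nearer to a border in 2D and 65.0% in 3D. The flanks were identical as well, with 80 kb outside TADs on the left that held the Fc receptor genes Fcgr4 and Fcgr3, and a 200 kb TAD on the right that began 9.15 kb before Dedd. A single CTCF core match lay within 40 kb of the right border, at chr1:171290714-171290753 on the plus strand in an intron of Ufc1, and 0 lay near the left border.
Apoa2 site: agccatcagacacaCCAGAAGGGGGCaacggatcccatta

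Apob, the gene of the structural apolipoprotein of very low density particles, lies at chr12:7977648-8016835 on the plus strand and is 39.2 kb long. It was the only member with a border inside the gene. The border at position 8000000 lies in an intron in both lists and leaves 22.4 kb (57.0% of the gene) with the start on one side and 16.8 kb with the end on the other. The longest exon, chr12:8005736-8013202 with 7.47 kb, is on the side of the end. A border inside the gene was found for 1 of 10 members in each list, against 14.9% of all genes in 2D and 13.8% in 3D. A border at the same position inside the gene in both lists was found for 9.94% of all genes and for 15.4% of the 2635 genes of 30 to 50 kb, so such a border is not rare at this gene length.

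The start of Apob was 22.4 kb from this border in both cultures, and 24.9% of all gene starts lay nearer to a border in 2D and 23.7% in 3D. What differed was the interval on the side of the start. In 2D the start lay outside TADs, in the 80 kb stretch chr12:7920001-8000000, and in 3D in the TAD chr12:7880001-8000000 of 120 kb. No gene start of the 3D list lay in a smaller TAD. Stretches of 80 kb were the usual kind outside TADs, 55.9% of them in 2D and 61.5% in 3D. Apob was the only gene start in the interval in both cultures. The change of state thus came with a shift of 1 bin at the far end of the interval, where the TAD on the left ended at 7920000 in 2D and at 7880000 in 3D. That TAD measured 2920 kb in the 2D list and 2840 kb in the 3D list and held 1 gene start, Klhl29.

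The end of Apob lay in the TAD chr12:8000001-8320000 of 320 kb, with identical ends in both lists and the gene starts of Ldah, a lipid droplet hydrolase, Gdf7 and Hs1bp3. Repeats made up 29.8% of the 3D TAD with the start and 30.8% of the TAD with the end, both below the 33.9% of all bins in TADs. The 80 kb stretch of the 2D list, which lies inside the 120 kb TAD of the 3D list, had 118 MboI sites per 40 kb. That whole TAD had 101. Sites and repeats were counted in the genome sequence, which is the same for both cultures, so these values are no difference between 2D and 3D. The part of repeats and MboI sites in the change of state was not tested. One CTCF core match lay within 40 kb of the border in the gene, 21.4 kb beyond it and past the end of Apob, at chr12:8021380-8021419 on the minus strand. The left ends of the interval, at 7880000 and 7920000, had 0 matches, and the border at 8320000 had 3.
Apob site: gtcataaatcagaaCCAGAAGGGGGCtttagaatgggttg

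Promoter sequence was examined for the members with a RefSeq promoter window of 300 bases in GRCm38.p6, 250 before and 50 after the start. Of the 10 members 8 had a window. Not matched were Apoc3 and Apoc1. The letters TATAAA, searched on both strands, were found for 3 of 8 members, Apoa5, Apob and Apoa2, in the 1 window per gene nearest to the annotated start, each time on the strand of the gene. Over all 32851 windows of the genome, with several for some genes, the share was 13.6% on either strand and 8.32% on the strand of the gene, so it is not counted the same way as the members. In Apoa5 they begin 56 bases before the annotated start, in Apob 31 bases and in Apoa2 212 bases before it. The window of Apoe nearest to the annotated start held none, and a second RefSeq window of Apoe, whose start lies 567 bases farther into the gene, held the letters on both strands. The 200 bases before the start are printed for Apoa5, the member nearest to a border in 2D, for Apob, the member whose state differed, and for Apoe, the first gene of the cluster outside TADs, each 5′ to 3′ on the strand of the gene with TATAAA in capitals. They are chr9:46268433-46268632 on the plus strand, chr12:7977448-7977647 on the plus strand and chr7:19699189-19699388 on the minus strand.
Apoa5 upstream: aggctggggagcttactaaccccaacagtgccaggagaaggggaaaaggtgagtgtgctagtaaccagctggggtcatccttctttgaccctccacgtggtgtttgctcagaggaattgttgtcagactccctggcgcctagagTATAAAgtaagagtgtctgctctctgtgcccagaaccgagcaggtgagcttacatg
Apob upstream: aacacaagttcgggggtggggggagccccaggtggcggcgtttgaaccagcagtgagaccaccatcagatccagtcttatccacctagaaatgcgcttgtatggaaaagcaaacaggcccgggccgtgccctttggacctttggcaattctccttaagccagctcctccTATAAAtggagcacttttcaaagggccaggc
Apoe upstream: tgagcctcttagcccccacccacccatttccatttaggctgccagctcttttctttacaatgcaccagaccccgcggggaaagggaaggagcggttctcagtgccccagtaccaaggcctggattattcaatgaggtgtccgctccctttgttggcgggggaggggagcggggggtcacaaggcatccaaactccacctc

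TAD lists carry no measure of promoter activity, so the sequences stand as a description of where these genes begin.

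Other genes, of lipoprotein metabolism or with symbols that begin with Apo, were placed in the same way, as 33 genes in 4 lists. Of these, 25 started in a TAD in 2D and 28 in 3D, and 17 of 33 (51.5%) were in a shared TAD, near the 50.2% of all genes. Outside TADs in both lists were 5 of 33 (15.2%), 3 were in a TAD in 3D only and 0 in 2D only. Over all genes these shares were 12.6% outside TADs, 10.8% in 3D only and 3.95% in 2D only, so the lists stood near the background.

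Among 11 other genes, listed because their symbols begin with Apo, 6 were in a shared TAD. Apon and Apof, which lie side by side on chromosome 10, were in 1 TAD of 120 kb in 2D and 280 kb in 3D. Apod, which codes for a carrier of the lipocalin family, was in a TAD of 360 kb in 3D and outside TADs in 2D, as was Apob. Apobr and Apoo were outside TADs in both.

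Among 8 genes of receptors and uptake, 4 were in a shared TAD. The sizes differed most for Vldlr, the receptor of very low density particles, with 200 kb in 2D and 720 kb in 3D, for Gpihbp1, the endothelial anchor of lipoprotein lipase, with 400 and 560 kb, and for Lrp1, a receptor of apolipoprotein E, with 120 and 200 kb. Scarb1, the receptor of high density particles, was outside TADs in both.

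Among 12 genes of lipases, lipid transfer and particle assembly, 5 were in a shared TAD, among them Mttp, which loads lipid onto apolipoprotein B, with 240 kb in both lists. The TADs of Lpl, lipoprotein lipase, and Lipg, endothelial lipase, were larger in 2D (720 and 960 kb) than in 3D (240 and 200 kb). The TAD of Lcat, the enzyme that apolipoprotein A-I activates, measured 120 kb (2D) and 480 kb (3D). Pltp, a phospholipid transfer protein gene, and Tm6sf2 were in a TAD in 3D only, of 120 and 400 kb, and the sterol transporter genes Abcg5 and Abcg8 were outside TADs in both. The lipase inhibitor genes Angptl4 (200 kb in 2D, 160 kb in 3D) and Angptl8 (280 kb in 2D, 320 kb in 3D) were both in shared TADs. The size differences of the 8 genes with a TAD in both lists that was not shared thus ran in both directions. The TAD was larger in 2D for Lpl and Lipg and larger in 3D for the other 6, of which Apon and Apof lie in the same TAD. A placement of that kind was found for 22.5% of all genes and for 0 of the 10 members, which make up only 4 loci.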

How the data were processed

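The deposited files are 1 table per culture, of a unit other than counts or signals: the start and end of each TAD in base pairs of mm10. The authors aligned the read ends with Bowtie 2 (version 2.2.9), merged the replicates, corrected the 40 kb contact matrices by ICE, brought each chromosome to equal depth in the cultures and called domains with Armatus. Any step before the list is fixed for both cultures and cannot be varied here.

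Gene models came from GENCODE M21 and sequence, repeats and MboI sites (GATC) from GRCm38. Scripts ran under Python (version 3.11.15). They used pandas (2.3.3) for the tables, numpy (2.4.6) for positions and scipy (1.17.1) for intervals. A TAD was shared when 1 TAD of the other culture had its start and its end each at most 40 kb away. No test was made, because each culture has 1 list. Members and gene lists were chosen with earlier results of these data known. All members were named, but of the genes in or beside their TADs only a selection was named. Up to 3 genes per list were named for the largest difference in TAD size. List genes named beyond these were chosen after their values were seen. The measures were tested on 3000 simulated TADs and 6 of 6 returned the known values. Alternatives were the position standing for a gene, the TADs and borders used, the distance allowed and reciprocal overlap. Some list genes are not reported here and were left out of the counts.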

Additional observations from a re-analysis of the deposited data

How the results depend on the processing

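Of 46 values recomputed under other settings, 40 moved by at most 1.5 times for counts, by less than 1 bin for sizes and distances, or stayed in the Wilson interval for shares, and 6 moved by more. Among the 40, the count of members in a TAD was 5 in 2D and 6 in 3D by the gene midpoint, as by the start, but 6 in both cultures by the gene end and 5 in both with TADs of at least 200 kb, which ends the difference between cultures at Apob. No share of all genes was computed beside these counts. With identical ends required, 1 member was in a shared TAD instead of 5, and the share of all gene starts was 35.1% instead of 50.2%; with ends within 80 kb that share was 56.8%. With each distinct TAD counted once, the members had a median TAD size of 280 kb (2D) and 240 kb (3D), and the direction of the difference between cultures turned. With borders limited to positions where 2 TADs meet, the median distance to a border was 206 kb (2D) and 93.2 kb (3D), and its order between the cultures turned as well. Of 2 alternatives chosen after seeing the data, 1 counted stretches outside TADs as domains and put 10 members in a shared interval. The share of all genes under that setting was not computed, so this count has no background beside it. In the other, runs of 4 gene starts within 80 kb shared a TAD in 49.8% instead of the 52.9% of neighbouring pairs. No paired analysis was possible because the replicates were merged before TADs were called, and for the same reason no replicate could be left out. Borders are known to 1 bin, which is also the size of both differences found at the members, at the Apoa1 cluster and at Apob.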
